A study of Mustela putorius furo with 8 samples.

Results

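CF cluster 0 was a group of 741 cells out of the 11345 retained cells from CFTR knockout (CF) ferret cultures, and of 32945 retained cells in the whole series. Its members were taken as the cells to which the deposited cell table gave the cluster number 0 within the CF genotype, under the class name centroacinar, and no cell was added or removed here. The authors had drawn the cluster on the same expression values that are described below, so the genes that set it apart are given as a description, with no test. Most of the cells, 654 or 88.3%, came from day 5 of culture, 70 came from day 7, 14 from day 9 and 3 from day 2.

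The series measured RNA in single cells of polarized pancreatic ductal epithelia (PDE) from ferrets, with 10x Genomics droplet libraries at day 2, 5, 7 and 9 of culture at an air-liquid interface, in wild-type (WT) animals and in animals whose genotype is given as CFTR KO/KO. CFTR is the chloride and bicarbonate channel of pancreatic ducts. The cells of both genotypes had been grown out from duct fragments of newborns 1 to 3 days old and carried through 10 passages before they were seeded on coated permeable supports, so they stand for expanded duct cells and not for freshly isolated tissue. The groups used here were the 4 CF libraries and the WT library of day 5, each a single library prepared from the cells of several animals. Replicate error could therefore not be estimated for any value, and genotype, animals and library cannot be told apart.

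The 5 genes that mark the cluster belong to pathways with well-known parts. PRRX2 is a paired-related homeobox transcription factor best known from mesenchyme of limb and face. LY6D is a small surface protein of the LY6 family that marks stratified squamous epithelium and early B cells. SMAD9 is 1 of the receptor-activated SMADs that carry signals of bone morphogenetic proteins (BMPs) to the nucleus, where they switch on the inhibitor of differentiation (ID) genes and the inhibitory SMADs. IGFBP3 is a secreted protein that binds insulin-like growth factors outside the cell, and SLC27A6 is a member of the fatty acid transport protein family. In the pancreas, centroacinar cells are the terminal duct cells that reach into the acinus; they are known for active Notch signaling, in which ligands of the Delta and Jagged families on 1 cell act on Notch receptors of its neighbor and the HES and HEY repressors are switched on.

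Day 5 was the library in which the cluster was large. It made up 23.8% of the 2750 CF cells there (95% exact Clopper-Pearson interval 22.2 to 25.4) and 39.8% of the 1642 cells under the centroacinar name (37.5 to 42.2). At day 7 the share was 4.36% of 1607 cells (3.41 to 5.47), at day 9 it was 0.562% of 2489 cells (0.308 to 0.942), and at day 2 it was 0.0667% of 4499 cells (0.0138 to 0.195). These intervals, like all those below, cover counting error only. The cluster was therefore described at day 5 and at day 7, where it had at least 50 cells.

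Depth differed between clusters. The 654 cells of day 5 held 12874279 unique molecular identifiers (UMIs) with a median of 18279 per cell, against 25572.5 in the other CF cells of that library, and the 70 cells of day 7 held 1786222 UMIs with a median of 22991.5, against 23539. All members at both days had at least 3000 UMIs, but of the 1607 CF cells of day 7 only 1196 did, and clusters 13 and 21 of that day, with 267 and 136 cells, had medians of 990 and 995 UMIs. Median mitochondrial UMIs were 5.74% in cluster 0 and 7.61% in the other cells at day 5, and 5.82% and 5.69% at day 7. Between 0 and 2 of the 654 barcodes of day 5 also occurred in any other library. CFTR UMIs were counted in CF libraries, and cluster 0 had 40 of them at day 5, or 3.11 CPM (UMIs per 1e6 UMIs of the group, 95% exact Poisson interval 2.22 to 4.23), against 9.92 CPM in the other CF cells. The 4 WT clusters of day 5 under the centroacinar name held CFTR at 33.6 to 46.6 CPM and the WT ductal cluster 0 at 3.76 CPM. The study states that its CFTR KO/KO ferrets make neither mRNA nor protein of CFTR. Whether the counted part of the transcript lies within the altered part of the gene is not given in the sources used here, so these counts do not check the genotype.

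The study had first named its clusters by their best correlation with published mouse and human pancreas data, which was not repeated here. The marker levels below are therefore no check of that naming. Compared with all other CF cells, the study's centroacinar markers did not single out cluster 0. Of the 2750 CF cells of day 5, 1642 carried the centroacinar name, those of cluster 0 included. The study named 6 centroacinar markers for its clusters of these libraries, in part after earlier single-cell reports, and 5 were in the matrix. At day 5 none was at least 2-fold higher in cluster 0 than in the other CF cells. Of the 5, 3 were at least 2-fold lower, where 3.47% of 8022 genes were lower. S100A6, a calcium-binding protein, stood at 10564 CPM against 34624 CPM. S100A4, of the same family, stood at 0.388 CPM against 35.6 CPM, and PROM1, a membrane protein of microvilli, at 0.544 CPM against 11.5 CPM. KRT7, a keratin of simple ducts, was at 2919 CPM against 2715 CPM, and WSB1 at 96.8 CPM against 101 CPM. Of the study's 6 ductal markers, KRT15 was at least 2-fold higher and none was lower, with a median of 0.41, where 2.02% and 3.47% of all genes were. None of the study's markers of any class was among the 10 leading genes of cluster 0 over the 4 CF libraries together, which were SLC27A6, PRRX2, LY6D, SLC22A4, ASS1, SMAD9, LOC101690991, EMB, IGFBP3 and PODNL1. The nearest centroacinar-named clusters were low in the summed level of these markers too. Over the 5 markers in the matrix it was 13581 CPM in cluster 0, 10682 CPM in cluster 16 and 18580 CPM in cluster 5. S100A6 alone made up 10564 CPM of the sum in cluster 0. Against clusters 5 and 16, none of 3 tested centroacinar markers was 2-fold apart. Over all genes 1.46% were higher and 1.73% lower against cluster 5, and 1.03% and 1.79% against cluster 16. At such shares a count of none among 3 says little. The cells are called CF cluster 0 here.

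The epithelial identity of the members was plain. KRT19, the general duct keratin, stood at 5310 CPM in cluster 0 and 4370 CPM in the other CF cells of day 5, and EPCAM, an epithelial adhesion protein, at 155 CPM and 147 CPM. Of 13 textbook duct and centroacinar genes in the matrix, 7 reached 10 CPM in either group, of which HES1 was at least 2-fold higher and KRT8 and KRT18 were at least 2-fold lower, where 2.02% and 3.47% of all genes were. SOX9, the transcription factor that marks ducts and centroacinar cells, was at 1.48 CPM in cluster 0 and 6.74 CPM in the other cells. PDX1, the pancreatic progenitor factor, was at 3.65 CPM (2.68 to 4.85) and 4.93 CPM.

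Markers of other cell types were low. The 8 acinar enzyme and factor genes in the matrix summed to 0.466 CPM in cluster 0, with 5 of them at 0, and to 0.461 CPM in the other cells of day 5. The summed level of 8 endothelial genes was 0.155 CPM with 7 at 0, that of 10 fibroblast and stellate genes 1.24 CPM with 7 at 0, that of 8 immune genes 3.42 CPM with 3 at 0, and 5 Schwann and neural genes were all at 0. The 16 endocrine genes summed to 32.7 CPM with 12 at 0, against 27.1 CPM in the other cells.

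All 5 marker genes were higher in cluster 0 than in the other CF cells of the same library, at day 5 and at day 7. PRRX2 was at 78.9 CPM (74.1 to 83.9) in cluster 0 of day 5 and 15 CPM (14 to 16) in the other cells, and at day 7 it was at 55.4 CPM (45.0 to 67.5) and 28.8 CPM (27.0 to 30.7). SLC27A6 was at 20.1 CPM (17.7 to 22.7) and 3.53 CPM (3.07 to 4.05) at day 5, and at 20.2 CPM (14.1 to 27.9) and 6.37 CPM (5.54 to 7.30) at day 7. SMAD9 was at 19.5 CPM (17.2 to 22.1) and 5.70 CPM (5.10 to 6.35) at day 5, and at 31.4 CPM (23.7 to 40.7) and 9.74 CPM (8.71 to 10.9) at day 7. The cluster and these markers were both chosen on the same values, so these gaps are a description only. The abundant markers LY6D and IGFBP3 showed the same order. LY6D was at 1268 CPM (1249 to 1288) against 468 CPM at day 5 and at 1555 CPM against 376 CPM at day 7, and IGFBP3 was at 2071 CPM (2046 to 2096) against 670 CPM at day 5 and at 2006 CPM against 889 CPM at day 7.

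As ratios of CPM, the markers of day 5 lay between 2.71 for LY6D (95% exact conditional binomial interval 2.66 to 2.76) and 5.69 for SLC27A6 (4.73 to 6.87). PRRX2 went from 5.26 (4.80 to 5.76) at day 5 to 1.92 (1.55 to 2.37) at day 7, the only marker under 2-fold there, while LY6D went from 2.71 to 4.14 (3.97 to 4.31). Other comparison cells ended some of these 2-fold calls. With each other cluster weighted equally, the log2 difference of LY6D at day 5 was 0.77 in place of 1.44. Against the other centroacinar-named cells, IGFBP3 was at 0.85 at day 5 and 0.52 at day 7, SLC27A6 at 0.92 at day 7 and PRRX2 at 0.29 at day 7, and with each cell weighted equally SMAD9 was at 0.90 at day 7. In the 14 cells of day 9, LY6D was at 3631 CPM, IGFBP3 at 2336 CPM and PRRX2 at 74.0 CPM (45.2 to 114), and SLC27A6 and SMAD9 rested on 3 and 2 UMIs.

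**Figure D1:**
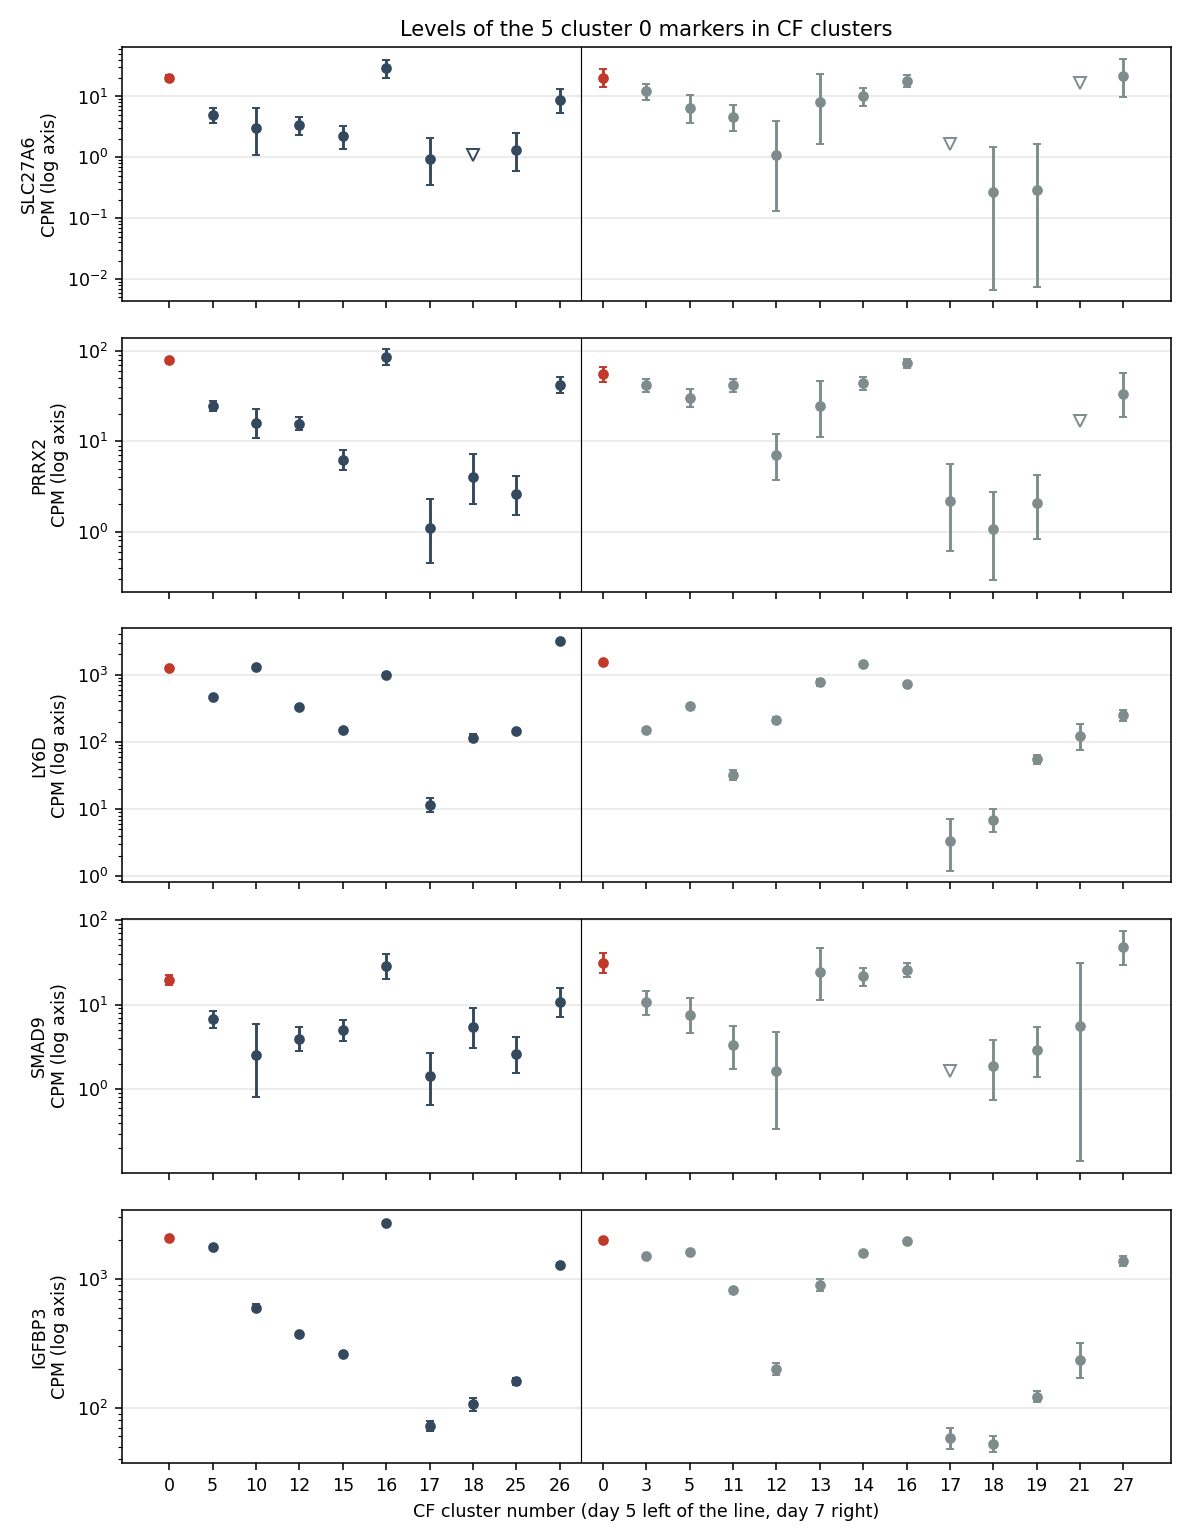
CPM on log axes of the 5 marker genes in each CF cluster with at least 50 cells, at day 5 (left of the line) and day 7 (right), with cluster 0 in red and bars for 95% exact Poisson intervals; open triangles stand for 0 UMIs and are drawn at the limit that 3 counts would give. Cluster 16 lies beside cluster 0 for PRRX2 (86.3 and 78.9 CPM at day 5), and cluster 26 lies above it for LY6D (3209 and 1268 CPM).

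The markers were not exclusive to the cluster. Among the 10 CF clusters with at least 50 cells at day 5, cluster 0 ranked next to the top for PRRX2, SLC27A6, SMAD9 and IGFBP3, behind cluster 16 each time, and was behind clusters 26 and 10 for LY6D, the latter at 1286 CPM (1237 to 1337) and so not separated from cluster 0 by counting error. Cluster 16, with 62 cells at day 5, held PRRX2 at 86.3 CPM (70.6 to 105), SLC27A6 at 28.8 CPM (20.05 to 40.03) and SMAD9 at 28.8 CPM (20.05 to 40.03). The ratio of cluster 0 to cluster 16 was 0.914 (0.747 to 1.13) for PRRX2 and 0.699 (0.490 to 1.03) for SLC27A6, so counting error did not separate these levels. It was 0.762 (0.735 to 0.791) for IGFBP3, 0.677 (0.474 to 0.994) for SMAD9 and 1.28 (1.21 to 1.36) for LY6D. Cluster 17, named a centroacinar progenitor, had the lowest level of LY6D, PRRX2 and IGFBP3 among the day 5 clusters, at 11.6 CPM, 1.11 CPM and 72.3 CPM. At day 7 cluster 16 was above cluster 0 for PRRX2, at 73.8 CPM (65.8 to 82.4). Cluster 27 had SMAD9 at 48.4 CPM (29.6 to 74.8) and SLC27A6 at 21.8 CPM (9.97 to 41.4), higher values than in cluster 0. These rested on 20 and 9 UMIs, and their intervals overlapped those of cluster 0. Median depth in cluster 27 of day 7 was 5712.5 UMIs, with 17.6% mitochondrial UMIs, against 22991.5 and 5.82% in cluster 0. LY6D in cluster 14 was at 1455 CPM (1414 to 1497), near the 1555 CPM (1498 to 1614) of cluster 0.

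At the level of single cells the markers were carried unevenly. After each cell had been thinned to 3000 UMIs, IGFBP3 was detected in 93.9% of cluster 0 cells at day 5 (91.8 to 95.6), LY6D in 57.5% (53.6 to 61.3), PRRX2 in 21.6% (18.5 to 24.9), SMAD9 in 6.57% (4.80 to 8.75) and SLC27A6 in 5.66% (4.01 to 7.71). The same shares in cluster 17, a cluster of the same library that was low for all 5 genes, were 16.2%, 3.56%, 0.791%, 0% and 0%. At this thinned depth 0 of 253 cells, by the limit of 3 counts, allows up to 1.19% of cells with a UMI, and without thinning SMAD9 was seen in 3.15% and SLC27A6 in 2.36% of cluster 17 cells. Their median depths were 18279 and 23745 UMIs. Without thinning the shares in cluster 0 were 99.4% for IGFBP3, 76.9% for LY6D, 69.4% for PRRX2, 28.7% for SMAD9 and 27.8% for SLC27A6. Cluster 16 was near cluster 0 in such counts. Its mean thinned UMIs per cell were 8.56 for IGFBP3, 2.85 for LY6D and 0.21 for PRRX2, against 6.61, 3.94 and 0.265 in cluster 0. SMAD9 and SLC27A6 had means of 0.0968 and 0.0806 in cluster 16, against 0.0657 and 0.0581. In cluster 5 the means of IGFBP3, LY6D, PRRX2, SMAD9 and SLC27A6 were 5.67, 1.48, 0.0849, 0.0229 and 0.00917.

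LY6D was the more uneven of the pair of abundant markers. Its thinned counts in cluster 0 of day 5 had a median of 1 UMI, a lower quartile of 0, an upper quartile of 5 and a highest value of 55, and the variance was 12.3 times the mean. IGFBP3 had a median of 5 UMIs, quartiles of 2.25 and 9, a highest value of 35 and a variance of 4.61 times the mean. At day 7 the variance was 11.5 times the mean for LY6D and 5.28 times for IGFBP3. At 3000 UMIs per cell, 309 of the 654 cells showed UMIs of 2 of the 5 markers, 204 of 1, 112 of 3, 12 of 4, 1 of all 5 and 16 of none.

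**Figure D2:**
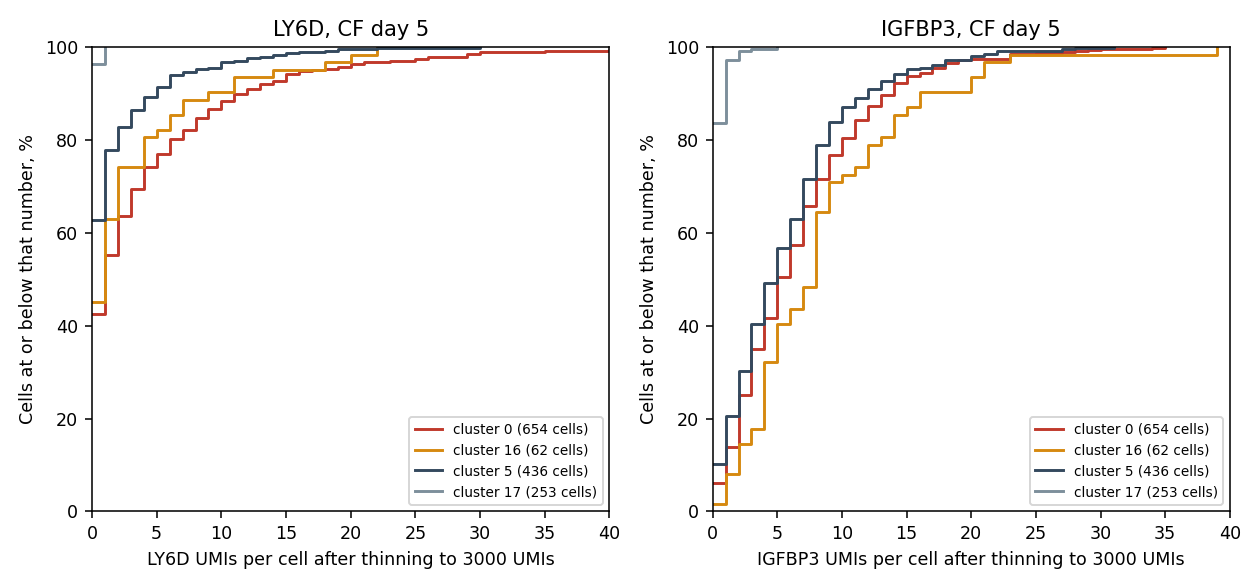
Cumulative share of cells (percent) at or below each number of LY6D UMIs (left) and IGFBP3 UMIs (right) per cell after thinning to 3000 UMIs, in 4 CF clusters of day 5. LY6D had no UMI in 278 of the 654 cluster 0 cells and its highest value, 55 UMIs, lies beyond the plotted range, while IGFBP3 had a median of 5 UMIs.

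Across all genes, 8022 reached 10 CPM in cluster 0 or in the other CF cells of day 5. Of these, 162 (2.02%) were at least 2-fold higher in cluster 0 on the log2(CPM + 1) scale and 278 (3.47%) were at least 2-fold lower. The median difference over all 8022 genes was 0.15 on that scale. Scaling by TMM factors in place of total UMIs brought this median to -0.03 and the split to 94 higher and 361 lower, so that 20.7% of the calls were higher in place of 36.8%. At day 7, 84 of 8231 genes (1.02%) were at least 2-fold higher and 329 (4%) at least 2-fold lower, with a median of -0.00 over all genes. These 4 shares are the background for the counts of list members against all other CF cells at the main settings. Against cluster 5, 1.46% of all genes tested were higher and 1.73% lower, and against cluster 16, 1.03% and 1.79%. With TMM factors 94 and 361 of 7811 genes of day 5 were higher and lower. Against the other centroacinar-named cells of day 5 the counts were 73 and 170 of 7944.

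The 2 days gave like pictures within 1 clustering, which had used both libraries. Of the 162 genes higher at day 5, 155 had the same direction at day 7 and 47 were again at least 2-fold higher. Of the 278 genes lower at day 5, 277 had the same direction and 204 were again at least 2-fold lower. No gene was at least 2-fold apart in opposite directions. Directly compared, the cluster 0 cells of day 7 were at least 2-fold higher than those of day 5 for 37 of 8043 genes (0.46%) and at least 2-fold lower for 22 (0.274%).

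The 12 genes with the highest difference at day 5 that kept their direction at day 7 began with PRRX2 and SLC27A6, with log2 differences of 2.32 and 2.22. ASS1, the argininosuccinate synthase of arginine synthesis, was at 105 CPM in cluster 0 and 21.8 CPM in the other cells of day 5, and at 121 CPM and 52.1 CPM at day 7. VAV3 was at 42.2 CPM and 9.83 CPM at day 5, and at 42.0 CPM and 16.8 CPM at day 7. KRT15, a keratin of basal epithelial cells, was at 27.3 CPM and 6.30 CPM at day 5 but at 7.84 CPM and 3.88 CPM at day 7. KRT15 was thus lower within the cluster at day 7 than at day 5, while ASS1 and VAV3 were near the same level at both days.

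The same list held genes of adhesion, matrix and transport. TNS1, a protein of focal adhesions, was at 22.4 CPM and 5.07 CPM at day 5, and AHNAK2, a large scaffold protein, at 102 CPM and 25.9 CPM. SLC22A4, an organic cation and ergothioneine transporter, was at 23.7 CPM and 5.56 CPM at day 5 and at 25.8 CPM and 4.49 CPM at day 7. HMCN2, a hemicentin of the extracellular matrix, was at 16.6 CPM and 3.70 CPM at day 5 and at 26.3 CPM and 10.2 CPM at day 7. The remaining 3 were ETV3L, an ETS family factor (12.9 CPM and 2.76 CPM at day 5), LOC101690991 (17.8 CPM and 4.18 CPM) and DLK2, a Delta-like protein (35.5 CPM and 9.49 CPM).

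**Figure D3:**
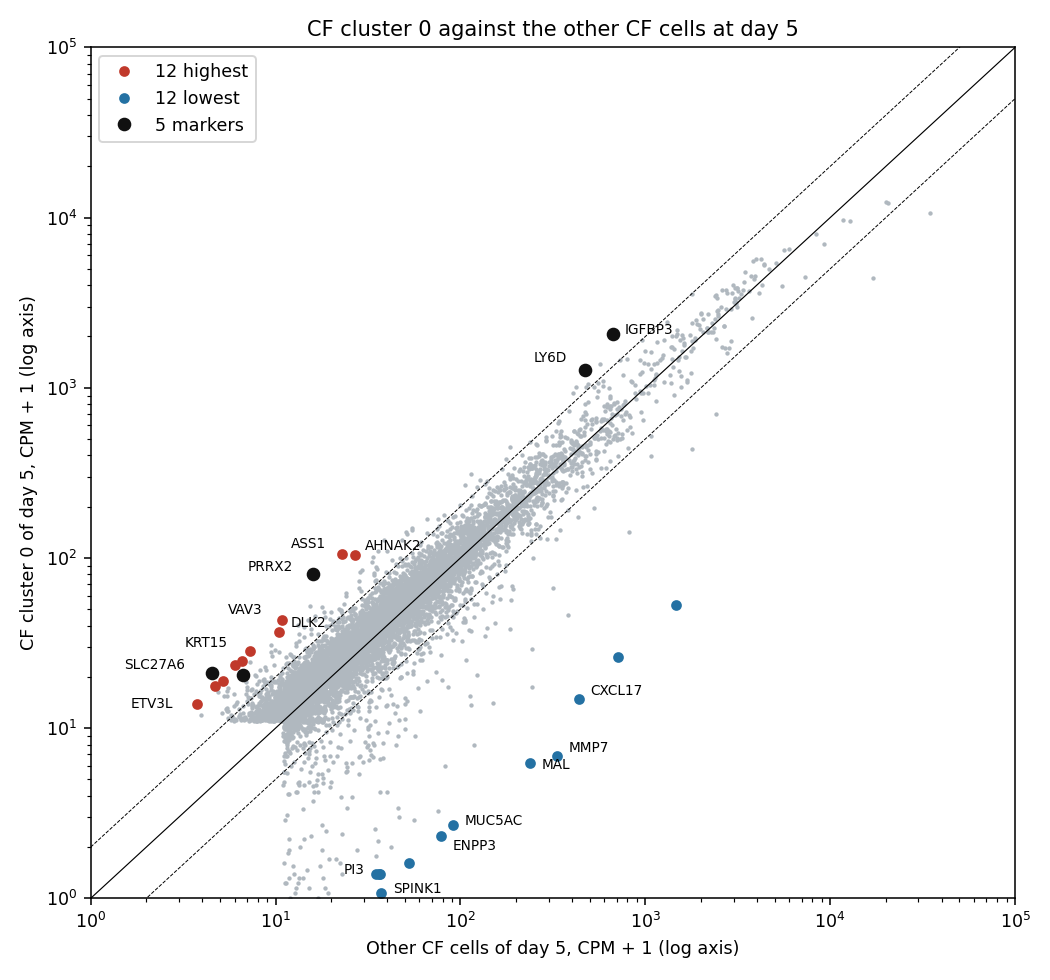
CPM + 1 of 8022 genes in CF cluster 0 (vertical) and in the other CF cells of the same library (horizontal) at day 5, both on log axes, with the line of equality and dashed lines at 2-fold. The 12 lowest genes, blue, lie farther from the line than the 12 highest, red or black; MMP7 was at 5.83 and 332 CPM, PRRX2 at 78.9 and 15 CPM.

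Differences to the lower side were larger. MMP7, the matrix protease matrilysin, was at 5.83 CPM (4.58 to 7.30) in cluster 0 and 332 CPM in the other CF cells of day 5, and at 6.16 CPM and 176 CPM at day 7. MAL, a membrane protein of apical sorting, was at 5.20 CPM and 237 CPM at day 5, and at 12.9 CPM and 211 CPM at day 7. Over the alternative settings its log2 difference at day 7 lay between -3.95 and -0.98. CXCL17, a chemokine of mucosal surfaces, was at 13.9 CPM and 435 CPM at day 5, and at 38.6 CPM and 285 CPM at day 7. Against the other CF cells under the centroacinar name alone, CXCL17 at day 7 was not lower (log2 difference 0.11). The nearest clusters of day 5 shared these low levels, except for MMP7 in cluster 5. Cluster 16 held MMP7 at 4.11 CPM, MAL at 1.64 CPM and CXCL17 at 4.11 CPM. Cluster 5 held MAL at 3.95 CPM and CXCL17 at 9.13 CPM. MMP7 was at 29.6 CPM there, and the ratio of cluster 0 to cluster 5 was 0.197 (0.151 to 0.254).

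The other 9 of the 12 included MUC5AC, SPINK1, TFF2 and PI3, whose products are secreted. MUC5AC, a gel-forming mucin, was at 1.71 CPM and 90.1 CPM at day 5. SPINK1, a trypsin inhibitor, had 1 UMI in cluster 0 of day 5, or 0.0777 CPM, against 36.3 CPM. TFF2, a trefoil peptide, was at 0.388 CPM and 34.0 CPM, and PI3, the protease inhibitor elafin, at 0.388 CPM and 35.1 CPM. ENPP3, an ectonucleotidase, was at 1.32 CPM and 77.0 CPM. MUC5AC, SPINK1 and ENPP3 had no UMI in cluster 0 at day 7, where 3 counts would be 1.68 CPM, and stood at 49.5, 61.6 and 41.9 CPM in the other cells. S100A4 and the genes LOC101676065, LOC101679224 and LOC101680039 completed the 12. In cluster 16 of day 5 SPINK1, TFF2, PI3 and S100A4 had no UMI, where 3 counts would be 2.47 CPM. MUC5AC and ENPP3 were at 1.64 and 0.822 CPM there. Cluster 5 held MUC5AC at 1.51 CPM, ENPP3 at 0.847 CPM and SPINK1 at 0.376 CPM, so these gaps were not particular to cluster 0.

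The study named its centroacinar progenitor list for clusters of these libraries, with earlier work cited for several genes. Of 11 genes of that list, 7 were at least 2-fold lower at day 5 and none higher. Their median log2 difference was -2.52 against 0.15 over all genes, of which 3.47% were lower. The nearest clusters were lower still: 2 of 7 genes were higher in cluster 0 and 1 lower than in cluster 5 (median 0.58). Over all genes 1.46% were higher and 1.73% lower in that comparison. Against cluster 16, 3 of 7 were higher and none lower (median 0.88), where 1.03% and 1.79% of all genes were. The summed levels were 417 CPM in cluster 0, 243 CPM in cluster 5 and 220 CPM in cluster 16. Among the genes of this list, MUC1, a membrane mucin, was at 142 CPM and 815 CPM, MUC16 at 12.97 CPM and 148 CPM, MUC4 at 1.17 CPM and 34.8 CPM, and MUC13 at 0.0777 CPM and 11.8 CPM. Of 14 genes of simple and secretory epithelium, 10 were lower and none higher, with a median of -2.01, but 8 were tested against cluster 16, of which 1 was higher and 1 lower (median 0.26), and 8 against cluster 5, of which 2 were higher and 3 lower (median -0.53). LTF, the antimicrobial lactoferrin, was at 2.25 CPM and 74.9 CPM. AGR2, a disulfide isomerase of mucus-making cells, was at 10.1 CPM and 45.4 CPM, and WFDC2, a secreted protease inhibitor, at 9.71 CPM and 40.3 CPM at day 5 but at 116 CPM and 94.2 CPM at day 7.

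Genes of basal and squamous epithelium were mixed. Of 13 that reached the minimum level at day 5, 3 were at least 2-fold higher and 1 lower, where 2.02% and 3.47% of all genes were, with a median of 0.44 that came to 0.00 against the other centroacinar-named cells. TP63, the master factor of basal epithelial cells, was at 168 CPM (161 to 175) and 64.8 CPM at day 5 and at 170 CPM and 97.4 CPM at day 7, and the other 2 higher genes were KRT15 and LY6D, itself a marker of the cluster. KRT5, the basal keratin, was at 824 CPM and 488 CPM at day 5 (log2 difference 0.76). GRHL3, a factor of squamous differentiation, was at 6.91 CPM and 30.5 CPM.

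A minority of the BMP signaling genes passed 2-fold at day 5. Of the 6 SMADs of the pathway, SMAD9, itself a marker of the cluster, and the inhibitory SMAD7 (124 CPM and 60.3 CPM) were at least 2-fold higher. None of the 6 was lower, and their median was 0.72. SMAD7 was at 158 CPM and 121 CPM at day 7. The inhibitory SMAD6 was at 41.0 CPM and 21.0 CPM, SMAD5 at 234 CPM and 165 CPM, and SMAD1, the other receptor-activated member, at 66.2 CPM and 74.0 CPM. SMAD9 was thus the least abundant of the 3 receptor-activated SMADs in UMIs of cluster 0. As a marker it was chosen for its high level in the cluster, so its distance from the other cells is no separate result.

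Of 10 targets of BMP signals tested, 3 were at least 2-fold higher and none lower, with a median of 0.88, where 2.02% of all genes were higher with a median of 0.15. ID4 was at 450 CPM (438 to 461) and 184 CPM at day 5 and at 418 CPM and 179 CPM at day 7, and cluster 16 of day 5 was not separated from cluster 0 by counting error, at 420 CPM and a ratio of 1.07 (0.977 to 1.17). ID3 was at 1910 CPM and 957 CPM at day 5, ID1 at 1625 CPM and 1072 CPM, and ID2 at 512 CPM and 288 CPM. These stayed under 2-fold, so ID4 was the 1 ID gene past it. NBL1, a secreted BMP antagonist, was at 145 CPM and 53.3 CPM at day 5 and at 178 CPM and 155 CPM at day 7. Of 4 BMP ligands and 5 BMP receptors tested at day 5, none was 2-fold apart. With TMM factors 1 of the 6 SMADs, the marker SMAD9, and 2 of the 10 targets were at least 2-fold higher. At day 7, 1 SMAD, again SMAD9, and 1 target were higher, and 1 of 5 ligands and 2 of 5 antagonists were lower. Against cluster 16 no SMAD or target was higher and 1 of 11 targets was lower, where 1.03% and 1.79% of all genes were. The medians were -0.37 for the SMADs and -0.36 for the targets.

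Several Notch pathway genes were higher at day 5, on both the ligand and the target side. Of 11 Notch genes tested at day 5, 6 were at least 2-fold higher and 1 lower, with a median of 1.01, where 2.02% of all genes tested were higher. With TMM factors 5 were higher and 1 lower, and against the other centroacinar-named cells 3 were higher and 1 lower. At day 7, 2 of 11 were higher and 1 lower, with a median of 0.53. None of the 11 was 2-fold apart from cluster 16, where 1.03% of all genes were higher and 1.79% lower. At such shares a count of none among 11 says little. Against cluster 5, 1 was higher and 1 lower, where 1.46% and 1.73% of all genes were. The ligand DLL1 was at 126 CPM (120 to 133) and 37.6 CPM at day 5 and at 119 CPM and 39.7 CPM at day 7. JAG2, another ligand, was at 72.1 CPM and 27.4 CPM at day 5 and at 68.3 CPM and 36.9 CPM at day 7. LFNG, the glycosyltransferase that tunes which ligand a Notch receptor answers, was at 99.7 CPM and 32.8 CPM at day 5 and at 107 CPM and 58.0 CPM at day 7.

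On the receiving side the members differed. NOTCH2 was at 26.6 CPM and 61.8 CPM at day 5, the 1 gene of the list that was lower, and NOTCH1 was at 60.4 CPM and 61.1 CPM. The target HES1 was at 1456 CPM and 724 CPM at day 5 and at 1125 CPM and 778 CPM at day 7, and HEY1, which BMP signals also raise, at 17.1 CPM and 6.89 CPM at day 5. With the ligand-like DLK2, these are the 6 higher genes. DLL1 in cluster 0 of day 5 was above each of the other 9 clusters, although cluster 16 was close to it at 125 CPM.

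**Figure D4:**
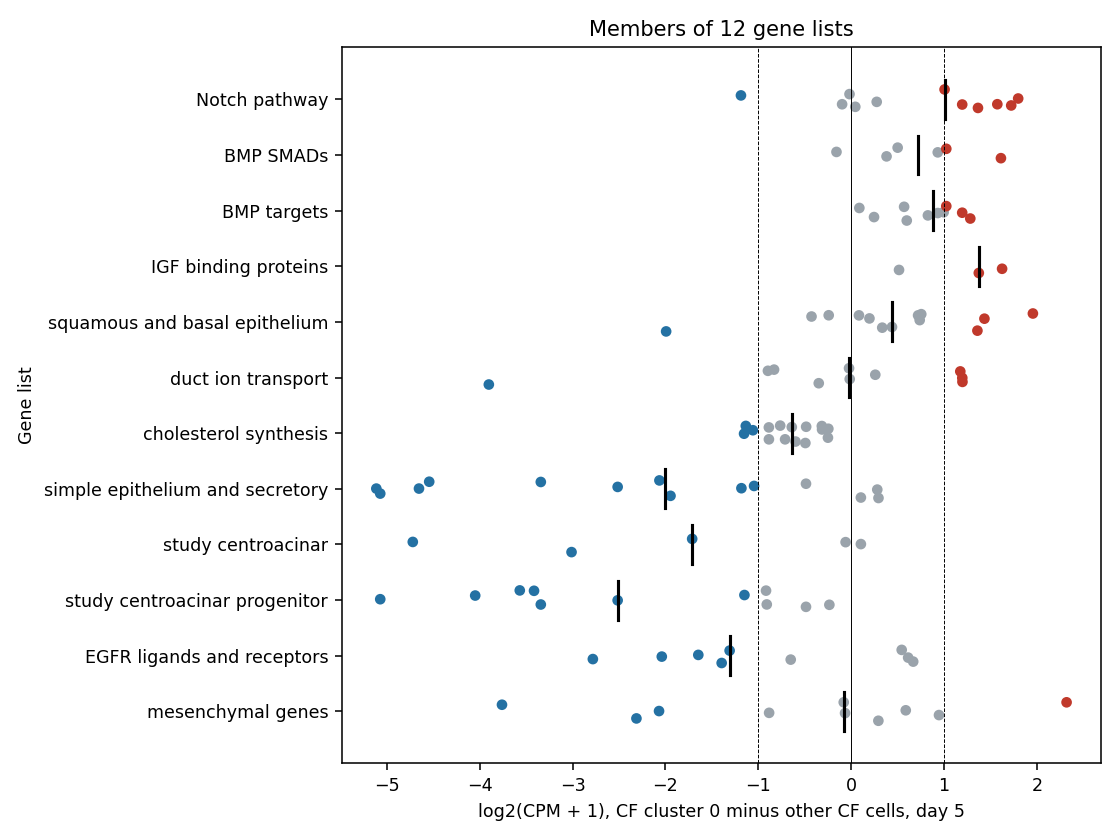
Difference in log2(CPM + 1) between CF cluster 0 and the other CF cells of day 5 for each tested member of 12 gene lists; points are genes (red at least 2-fold higher, blue at least 2-fold lower, grey between), black bars are medians and dashed lines mark 2-fold. The Notch list has 6 of 11 members on the red side and the simple and secretory list 10 of 14 on the blue side.

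Insulin-like growth factor genes were few at these levels. Of 3 binding proteins tested at day 5, 2 were at least 2-fold higher, where 2.02% of all genes were. They were IGFBP3, itself a marker of the cluster, and IGFBP2 (19.3 CPM and 6.84 CPM). IGFBP7 was at 1403 CPM and 981 CPM. As a marker IGFBP3 was chosen for its high level in the cluster, so its call is no separate result. Against the other centroacinar-named cells none of the 3 was 2-fold higher at day 5, with log2 differences of 0.85 for IGFBP3 and 0.46 for IGFBP2. At day 7 IGFBP2 was at 19.0 CPM and 20.8 CPM, so that the marker IGFBP3 was the 1 member 2-fold higher. INSR, the insulin receptor, was at 9.09 CPM and 30.8 CPM at day 5 and at 7.84 CPM and 22.9 CPM at day 7. Over the alternative settings its log2 difference at day 7 lay between -1.45 and -0.18. Ligands and receptors of the epidermal growth factor family differed from the other CF cells but little from the nearest clusters. At day 5, 5 of 9 were at least 2-fold lower and none higher, with a median of -1.31, where 3.47% of all genes were lower. Against cluster 5 1 of 6 was lower (median -0.08), where 1.73% of all genes were. Against cluster 16 none of 6 was 2-fold apart (median 0.04), where 1.03% of all genes were higher and 1.79% lower. At such shares a count of none among 6 says little. The ligand AREG was at 173 CPM and 431 CPM, EREG at 43.8 CPM and 117 CPM, BTC at 9.40 CPM and 31.6 CPM and EGF at 0.621 CPM and 10.2 CPM, and the receptor ERBB3 was at 7.15 CPM and 32.5 CPM. At day 7 EGF and ERBB3 were not lower than in the other CF cells under the centroacinar name (log2 differences 0.41 and 0.49).

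Most lipid genes other than SLC27A6 were within 2-fold of the other cells. FABP5, a fatty acid binding protein, was at 395 CPM and 1072 CPM at day 5, and ACSL1, which activates long-chain fatty acids, at 5.59 CPM and 35.5 CPM, the 2 lower genes of 10 tested, with none higher. Both levels were the lowest of the 10 clusters of day 5, although ACSL1 in cluster 5 was close at 5.93 CPM. CPT1A, the carnitine transferase of mitochondrial fatty acid import, was at 41.9 CPM and 104 CPM, the 1 lower gene of 14 of fatty acid oxidation. That list had none higher and a median of 0.41 at day 5 and 0.27 at day 7, with ACADM, a dehydrogenase of medium-chain fatty acids, at 395 CPM and 266 CPM at day 5. Of 12 genes of lipid synthesis and storage, 2 were lower and none higher at day 5, with a median of -0.33, and none was 2-fold apart at day 7. The lower 2 were FASN, the fatty acid synthase, at 15.9 CPM and 35.9 CPM, and the elongase ELOVL5 at 34.8 CPM and 83.0 CPM. Of 15 cholesterol synthesis genes, SQLE (30.5 CPM and 64.7 CPM), LSS (11.7 CPM and 26.8 CPM) and MVD (10.1 CPM and 23.7 CPM) were at least 2-fold lower and none higher, with a median of -0.64. All 15 differences were below 0, but none was 2-fold lower with a pseudocount of 5 CPM, 1 was with each cluster weighted equally, 5 were with TMM factors and with DESeq2 factors, 6 of 16 were against the other centroacinar-named cells, and 1 of 16 was at day 7. Over all genes of day 5, 3.47% were lower. The summed level was 610 CPM in cluster 0, 1660 CPM and 1587 CPM in clusters 5 and 10, and 575 CPM and 496 CPM in clusters 15 and 17.

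Mesenchymal genes other than PRRX2 were not called higher, and the comparison turned on a few clusters. Their summed level at day 5 was 549 CPM in cluster 0, above 7 of the 9 other clusters (196 to 299.9 CPM) and below clusters 16 (1363 CPM) and 5 (1631 CPM). Of 10 tested at day 5, PRRX2 was the 1 at least 2-fold higher and 3 were lower, and at day 7 none of 11 was higher and 6 were lower. Over all genes 2.02% were higher and 3.47% lower at day 5, and 1.02% and 4% at day 7. TAGLN, the smooth muscle protein transgelin, was at 1.55 CPM and 33.6 CPM at day 5 and at 2.24 CPM and 527 CPM at day 7. CALD1, caldesmon, was at 5.83 CPM and 27.6 CPM at day 5 and at 8.96 CPM and 387 CPM at day 7, and MYL9, a myosin light chain, at 5.75 CPM and 32.5 CPM at day 5. CALD1 in cluster 0 of day 5 was nevertheless above 7 of the 9 other clusters, with cluster 5 at 103 CPM and cluster 16 at 34.5 CPM, and at day 7 cluster 11 reached 2363 CPM while clusters 17, 18 and 19 lay at 8.30, 2.66 and 3.52 CPM. PRRX1, the close relative of PRRX2, had 35 UMIs in cluster 0 of day 5, or 2.72 CPM (1.89 to 3.78), against 1.35 CPM. SNAI2, a repressor known from epithelial to mesenchymal transition, was at 70.1 CPM and 35.9 CPM (log2 difference 0.95). COL18A1, a basement membrane collagen, was at 269 CPM and 105 CPM at day 5 but at 303 CPM and 406 CPM at day 7. Over the alternative settings its log2 difference at day 5 lay between 0.38 and 1.35. Against the other centroacinar-named cells none of 4 collagens was 2-fold higher at day 5.

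Transport genes split within the duct list. Of 10 tested at day 5, 3 were at least 2-fold higher and 1 lower, where 2.02% and 3.47% of all genes were, with a median of -0.02, and with TMM factors 2 were higher and 3 lower. AQP3, a water and glycerol channel of basolateral membranes, was at 932 CPM and 406 CPM at day 5 and at 693 CPM and 251 CPM at day 7. KCNN4, a calcium-activated potassium channel, was at 95.8 CPM and 41.9 CPM at day 5. The sodium channel subunits went opposite ways: SCNN1G was at 26.4 CPM and 10.96 CPM at day 5 and SCNN1A at 6.91 CPM and 117 CPM. At day 7 SCNN1A was at 16.2 CPM and 85.3 CPM, but it was not lower than in the other cells under the centroacinar name (log2 difference 0.65). Against cluster 5 of day 5, 3 of 9 genes of the list were higher and none lower, where 1.46% and 1.73% of all genes were. Against cluster 16, 1 of 9 was higher and none lower, where 1.03% and 1.79% were.

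Further lists each held a few members past 2-fold at day 5. Of 14 WNT pathway genes, the ligand WNT4 was higher (16.3 CPM and 4.56 CPM) and the ligand WNT5A (6.99 CPM and 33.1 CPM) and the antagonist DKK1 (20.0 CPM and 50.3 CPM) were lower. WNT4 at day 7 was at 17.9 CPM and 5.25 CPM, and cluster 0 lay above the other 9 clusters of day 5 and 12 of day 7, with clusters 16 (14.8 CPM at day 5) and 27 (16.95 CPM at day 7) close to it. Of 17 immediate early genes, JUN (1006 CPM and 479 CPM) and JUNB (1005 CPM and 423 CPM) were higher, where 2.02% of all genes were. Against the other centroacinar-named cells none of the 17 was higher and 1 was lower, with TMM factors 1 was higher and 1 lower, and at day 7 none of 16 was higher and 1 was lower. Of 8 genes of the LY6 family, LY6D, itself a marker of the cluster, was the 1 higher member, where 2.02% of all genes were. PSCA (28.1 CPM and 242 CPM) and LYPD2 (65.7 CPM and 314 CPM) were lower, where 3.47% of all genes were. Against cluster 5, 3 of 7 were higher and none lower, where 1.46% and 1.73% of all genes were. Against cluster 16, 2 of 7 were higher and none lower, where 1.03% and 1.79% were. CD74 and OCLN, of other lists, were lower than in all other CF cells at day 5 (log2 differences -1.52 and -1.47). At day 7 PSCA, LYPD2, CD74 and OCLN were not lower than in the other centroacinar-named cells (log2 differences 1.1, 0.44, 0.14 and 0.16). ASCL2, a WNT target and stem cell factor of intestine, was at 58.7 CPM and 23.0 CPM.

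Genes of dividing cells separated cluster 0 from only some of the other cells. Of 5 genes of G2 and mitosis tested at day 5, TOP2A (1.71 CPM and 16.7 CPM), UBE2C (1.48 CPM and 17.6 CPM) and CENPF (0.621 CPM and 21.2 CPM) were at least 2-fold lower, where 3.47% of all genes were, and the 23 genes of the list summed to 53.4 CPM and 199 CPM. Other clusters of day 5 lay near cluster 0 in that sum, at 52.7 CPM in cluster 15, 53.6 CPM in cluster 17 and 59.2 CPM in cluster 16, while cluster 10 was at 483 CPM. Against the other centroacinar-named cells, or with each cluster weighted equally, 2 genes of the list were tested and neither was 2-fold apart, and TOP2A was at a log2 difference of -0.06 from the centroacinar-named cells. Of 10 interferon-stimulated genes, 3 were lower and none higher at day 5, with a median of -0.34, and 1 of 8 was lower at day 7, where 3.47% and 4% of all genes were lower. None of 8 was 2-fold apart from cluster 5, where 1.46% of all genes were higher and 1.73% lower. None of 7 was 2-fold apart from cluster 16, where 1.03% and 1.79% were. At such shares these counts of none say little. Among them MX2 was at 1.86 CPM and 55.0 CPM and ISG15 at 6.76 CPM and 30.3 CPM. The 13 mitochondrially encoded genes summed to 60453 CPM in cluster 0 and 88792 CPM in the other cells at day 5, and to 68935 CPM and 81896 CPM at day 7. The part of this in the other differences was not tested.

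The nearest clusters of the same library were clusters 16 and 5, both named centroacinar. Across 8022 genes the Pearson r of log2(CPM + 1) with cluster 0 of day 5 was 0.984 for its own cells of day 7, 0.971 for cluster 16 and 0.971 for cluster 5 of day 5, and 0.965 for cluster 26. It was 0.973 for the ductal-named CF cluster 2 of day 2, above clusters 16 and 5 of its own library. For clusters 16 and 14 of day 7 it was 0.974 and 0.972. These are correlations across genes, which are not independent replicates, and the clusters of day 5 share a library. Cluster 15, also named centroacinar and with 344 cells at day 5, was at r 0.869. Against it 1364 of 8081 genes (16.9%) were at least 2-fold higher in cluster 0 and 403 (4.99%) at least 2-fold lower. Its summed level of the study's centroacinar markers was 50194 CPM, against 13581 CPM in cluster 0. Cluster 17 was the least like of the CF clusters of day 5 at r 0.820.

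Against cluster 16, 84 of 8168 genes (1.03%) were at least 2-fold higher in cluster 0 and 146 (1.79%) at least 2-fold lower. None of the 5 markers was among them. Cluster 16 lay above cluster 0 for 109 of the 162 genes that set cluster 0 apart from the other cells, and cluster 0 was the highest of the 10 clusters for 41 of the 162. KRT15 was at 27.3 CPM in cluster 0 and 5.76 CPM in cluster 16, SLC22A4 at 23.7 CPM and 4.93 CPM, and AQP3 at 932 CPM and 396 CPM. On the other side, TAGLN was at 1.55 CPM and 10.7 CPM, MYL9 at 5.75 CPM and 38.7 CPM and CALD1 at 5.83 CPM and 34.5 CPM, and 6 of 10 mesenchymal genes were at least 2-fold lower in cluster 0. Cluster 16 was compared after its levels had been seen.

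Against cluster 5, which had 436 cells at day 5, 116 of 7921 genes (1.46%) were at least 2-fold higher in cluster 0 and 137 (1.73%) at least 2-fold lower. PRRX2 differed 3.21-fold (2.80 to 3.70), SLC27A6 4.03-fold (2.99 to 5.53), SMAD9 2.92-fold (2.23 to 3.85) and LY6D 2.74-fold (2.65 to 2.83), while IGFBP3 differed 1.18-fold (1.16 to 1.20). Cholesterol synthesis stood out in the counts, with 12 of 16 genes at least 2-fold lower in cluster 0 and a median of -1.33. MVD was at 10.1 CPM in cluster 0 and 54.3 CPM in cluster 5, and SQLE at 30.5 CPM and 130 CPM. Contractile genes were lower too, with TAGLN at 1.55 CPM and 143 CPM and MYL9 at 5.75 CPM and 141 CPM, and 6 of 10 mesenchymal genes were at least 2-fold lower.

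Clusters 3 and 1, also named centroacinar, were of other days. At day 7, 343 of 8284 genes (4.14%) were at least 2-fold higher in cluster 0 than in cluster 3 and 506 (6.11%) at least 2-fold lower. LY6D was at 1555 CPM in cluster 0 and 151 CPM in cluster 3, AQP3 at 693 CPM and 52.7 CPM and DLK2 at 34.7 CPM and 3.84 CPM, while TAGLN was at 2.24 CPM and 797 CPM. Cluster 1 was found at day 2, so that cluster and library cannot be told apart. Against it, 242 of 7859 genes (3.08%) were at least 2-fold higher in cluster 0 of day 5 and 55 (0.7%) at least 2-fold lower. LY6D was at 57.9 CPM there, PRRX2 at 7.75 CPM and SLC27A6 at 1.05 CPM, but DLL1 was at 139 CPM, JAG2 at 70.7 CPM and TP63 at 150 CPM, near the 126, 72.1 and 168 CPM of cluster 0. In the ductal-named cluster 2 of day 2, DLL1 was at 155 CPM and KRT15 at 41.8 CPM, LY6D at 36.7 CPM and PRRX2 at 9.70 CPM.

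**Figure D5:**
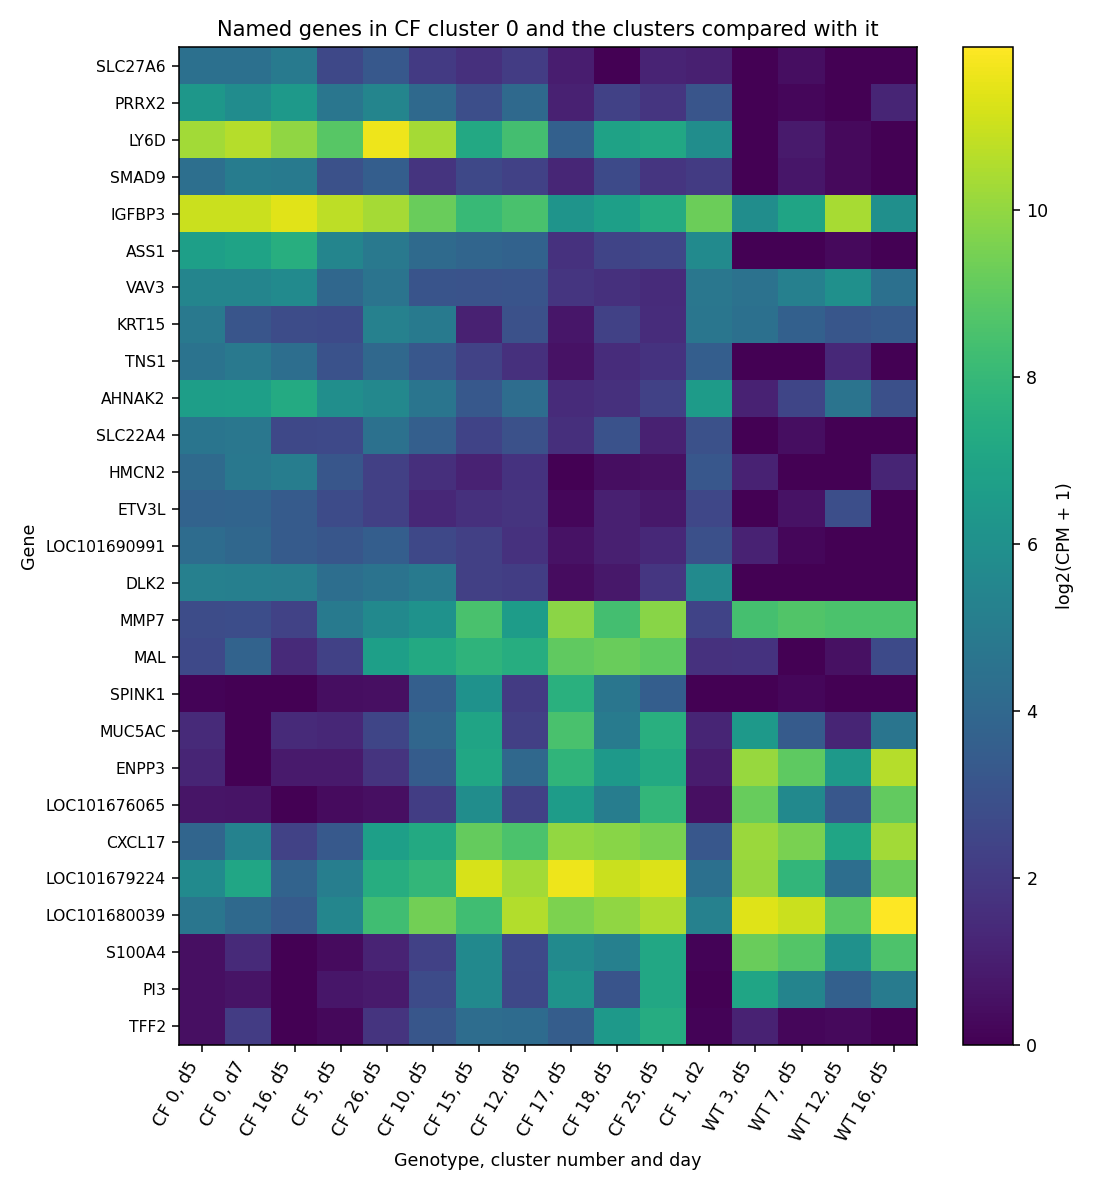
log2(CPM + 1) of the 5 markers, the 12 highest and the 12 lowest genes (rows) in CF cluster 0 at day 5 and 7, the other 9 CF clusters of day 5, CF cluster 1 of day 2 and 4 WT clusters of day 5 (columns). Clusters 16 and 5 resemble cluster 0 in the lower genes, except for MMP7 in cluster 5 (29.6 CPM, against 5.83 CPM in cluster 0 of day 5). The markers other than IGFBP3 have 0 to 5 UMIs in each WT cluster.

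WT cells had no part in the CF clustering, but all 4 WT clusters of day 5 under the centroacinar name came from another library and other animals. Genes at least 2-fold higher in cluster 0 were 1578 of 8383 (18.8%) against WT cluster 3, 1218 of 8199 (14.9%) against WT cluster 7, 912 of 8226 (11.1%) against WT cluster 12 and 1242 of 8681 (14.3%) against WT cluster 16. Genes at least 2-fold lower were 932 (11.1%), 707 (8.62%), 614 (7.46%) and 1482 (17.1%). The WT clusters held 50, 313, 254 and 78 cells.

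The markers other than IGFBP3 were at or near the counting limit in these WT cells. LY6D had 0, 5, 1 and 0 UMIs in WT clusters 3, 7, 12 and 16, PRRX2 had 0, 1, 0 and 1, SLC27A6 had 0, 2, 0 and 0, and SMAD9 had 0, 4, 1 and 0. The 1 LY6D UMI of WT cluster 12 corresponds to 0.231 CPM (0.00584 to 1.29), against 1268 CPM in CF cluster 0. IGFBP3 was at 57.1 CPM in WT cluster 3, 126 CPM in cluster 7, 1336 CPM in cluster 12 and 61.3 CPM in cluster 16. TP63 was at 2.38, 2.03, 6.69 and 4 CPM and DLL1 at 5.95, 6.42, 18 and 11.99 CPM. PROM1, low in cluster 0, was at 598, 163, 27.5 and 1018 CPM.

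The WT cells of day 5 most like CF cluster 0 were under another name. WT cluster 0, named ductal, had a Pearson r of 0.952 with it over the 8022 genes, against 0.849 for WT cluster 12, the nearest of the 4 above. PRRX2 was at 54.0 CPM (49.9 to 58.3) in WT cluster 0, SMAD9 at 12.3 CPM (10.4 to 14.4), SLC27A6 at 6.86 CPM (5.45 to 8.51), IGFBP3 at 1637 CPM and LY6D at 109 CPM. TP63 was at 117 CPM, DLL1 at 84.0 CPM and HES1 at 1522 CPM there. ASS1 was at 3.59 CPM, against 105 CPM in CF cluster 0. WT cluster 0 was looked at after these levels had been seen, and genotype and library cannot be told apart in it.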

How the data were processed

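The deposited matrices held whole-number UMI counts per gene and cell, made by the authors with Cell Ranger (version 5.0.1, per the labels) against the ferret genome. They kept cells by gene number and mitochondrial share, removed doublets with DoubletFinder and merged the libraries in Seurat under R 4.1.2 without batch correction. CF and WT cells were clustered separately into 30 and 41 clusters with 6 class names. The names were first given with clustifyr, by correlation with published pancreas datasets. Mitochondrial values were a percent column in the deposited cell table. No further cell was removed and no doublet caller was run here.

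Counts were summed over the cells of a cluster in a library and divided by their total (CPM). Differences are log2(CPM + 1), among genes with at least 10 CPM in either group; a gene was called at 2-fold. With 1 library per group and cells that are not replicates, no test was run. Intervals are 95% exact Poisson (levels), Clopper-Pearson (shares) and conditional binomial (ratios), and cover counting error only. For shares of cells, each cell was thinned to 3000 UMIs and shallower cells were left out, 1 of 254 in cluster 17 and none in cluster 0. A level that 3 counts would give was used as the limit for 0. Named were the 5 markers, the 12 highest and 12 lowest called genes of day 5 with the same direction at day 7, and members of 62 gene lists; gene symbols were those of the files, 27467 of 27912 with an entry in the RefSeq table. The members and lists were chosen with earlier results of these data known. The calculation was tested on simulated data. Alternatives changed the pseudocount, filter, scaling (edgeR 4.0.16 TMM, DESeq2 1.42.0 factors only), cell and cluster weights, depth minimum and comparison cells. Python 3.11.15, numpy 2.4.6, pandas 2.3.3, scipy 1.17.1 and R 4.3.3 were used.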

Additional observations from a re-analysis of the deposited data

How the results depend on the processing

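Counts of genes at least 2-fold apart from the other CF cells moved with the settings. At day 5, the 162 higher genes became 99 with a pseudocount of 5 CPM, 58 at a minimum of 50 CPM, 258 with no filter, 94 with TMM factors, 94 with DESeq2 factors, 103 with each cell weighted equally, 101 with each cluster weighted equally and 73 against centroacinar-named cells only. The 278 lower genes became 98, 538 and 170 at a minimum of 50 CPM, with no filter and against centroacinar-named cells. At day 7, the 84 higher genes became 44, 19 and 213 with a pseudocount of 5 CPM, a minimum of 50 CPM and no filter, and the 329 lower genes became 114 and 874 with the latter 2. The filters change how many genes are compared. For the other settings the cause was not tested.

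Of 164 named values past 2-fold, 156 kept their direction under every alternative and 89 stayed past 2-fold. The 8 that turned did so at day 7 against centroacinar-named cells, at log2 differences of 0.11 for CXCL17, 0.14 for CD74, 0.41 for EGF, 0.49 for ERBB3, 0.44 for LYPD2, 0.16 for OCLN, 1.1 for PSCA and 0.65 for SCNN1A. Without its highest gene, S100A6, the summed level at day 5 turned to 0.0757 for the study's centroacinar list and 0.0328 for the S100 list. No paired analysis was possible because each genotype and day had 1 library. Some low values rest on few UMIs in cluster 0 of day 5, among them SPINK1 with 1 and TFF2, PI3 and S100A4 with 5 each.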
